A study of Saccharomyces cerevisiae with 12 samples.

Results

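De novo purine synthesis builds IMP, the precursor of AMP and GMP, and its genes were followed here in yeast cells that carry H2B R95A or H2B WT, with and without rapamycin. The 10 genes were ADE1, ADE4, ADE6, ADE8, ADE12, ADE13, ADE16 and ADE17, which encode enzymes of the pathway, MTD1, which serves its folate supply, and BAS1, its transcriptional activator. They were found by gene symbol in the probe set annotation, and each of the 10 had 1 probe set, among the 5498 probe sets (5449 genes) that could be assigned to a single Saccharomyces cerevisiae gene.

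The study asked how replacing arginine 95 of histone H2B with alanine makes cells resistant to rapamycin, a drug that inhibits the TORC1 kinase. RNA was hybridised to Affymetrix Yeast Genome 2.0 arrays in 4 groups of 3 arrays, namely H2B R95A with rapamycin, H2B R95A untreated, H2B WT with rapamycin and H2B WT untreated. Treated cultures received 200 ng/ml of rapamycin for 30 min during exponential growth. Both strains come from the MATa strain FY406, in which the chromosomal loci hta1-htb1 and hta2-htb2 are replaced by LEU2 and TRP1, and both are mutant at his3, leu2, ura3, trp1 and lys2. The only H2A and H2B of each strain are made from a single-copy plasmid with a His marker, so both strains depend on a plasmid for these histones. No ade mutation is listed for them. The array probes cannot read the R95A substitution, so the genotype rests on the labels.

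In yeast the pathway starts from phosphoribosyl pyrophosphate (PRPP) and reaches IMP through an ordered set of enzymes, 2 steps of which take a one-carbon unit from folate. Bas1 acts with the homeodomain protein Pho2 to activate most ADE genes when an intermediate of the pathway, AICAR or its precursor SAICAR, accumulates, and external adenine lowers this activation. The pathway shares PRPP with the histidine pathway, which also releases AICAR, and nucleotide demand is high in growing cells, where TORC1 drives ribosome production.

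Values are log2 signals after robust multi-array averaging (RMA), so a difference of 1 is a doubling of signal. They are relative to the other RNA of the same sample, and fewer cells or less RNA per cell cannot be told apart from them. No source says whether the replicates were separate cultures, so p-values measure only the spread between arrays, which may be technical. The median signal of the tested probe sets lay between 7.25 and 7.30 on the 12 arrays, and none of the 66 pairs of arrays held identical values. The arrays numbered replicate 1 stood apart: 12 glucose-repressed genes averaged 10.6 to 10.9 on those 4 arrays, against 6.62 to 8.89 on the other 8. This list was already known from an earlier analysis of these data to be high in replicate 1, so its values only describe the arrays. The strains also differed in 7 a-specific mating genes, whose mean was 4.42 to 5.51 on the H2B R95A arrays and 8.25 to 10.13 on the H2B WT arrays. Whether either difference has a part in the purine gene values was not tested.

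The members differed widely in how much their signals varied over the 12 arrays. ADE17 spanned 3.69 log2 units, ADE13 2.58, ADE6 2.48, ADE1 2.25 and BAS1 2.18, against a median span of 1.20 for all tested probe sets. The within-group SD of ADE17 was 1.13, at the 97.9th percentile of all tested probe sets, whose median was 0.371. ADE16 was the flattest member, with a span of 0.564 and a within-group SD of 0.187, at the 9.48th percentile. The highest signal of 9 members, all but ADE16, was on untreated H2B R95A replicate 2.

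**Figure D1:**
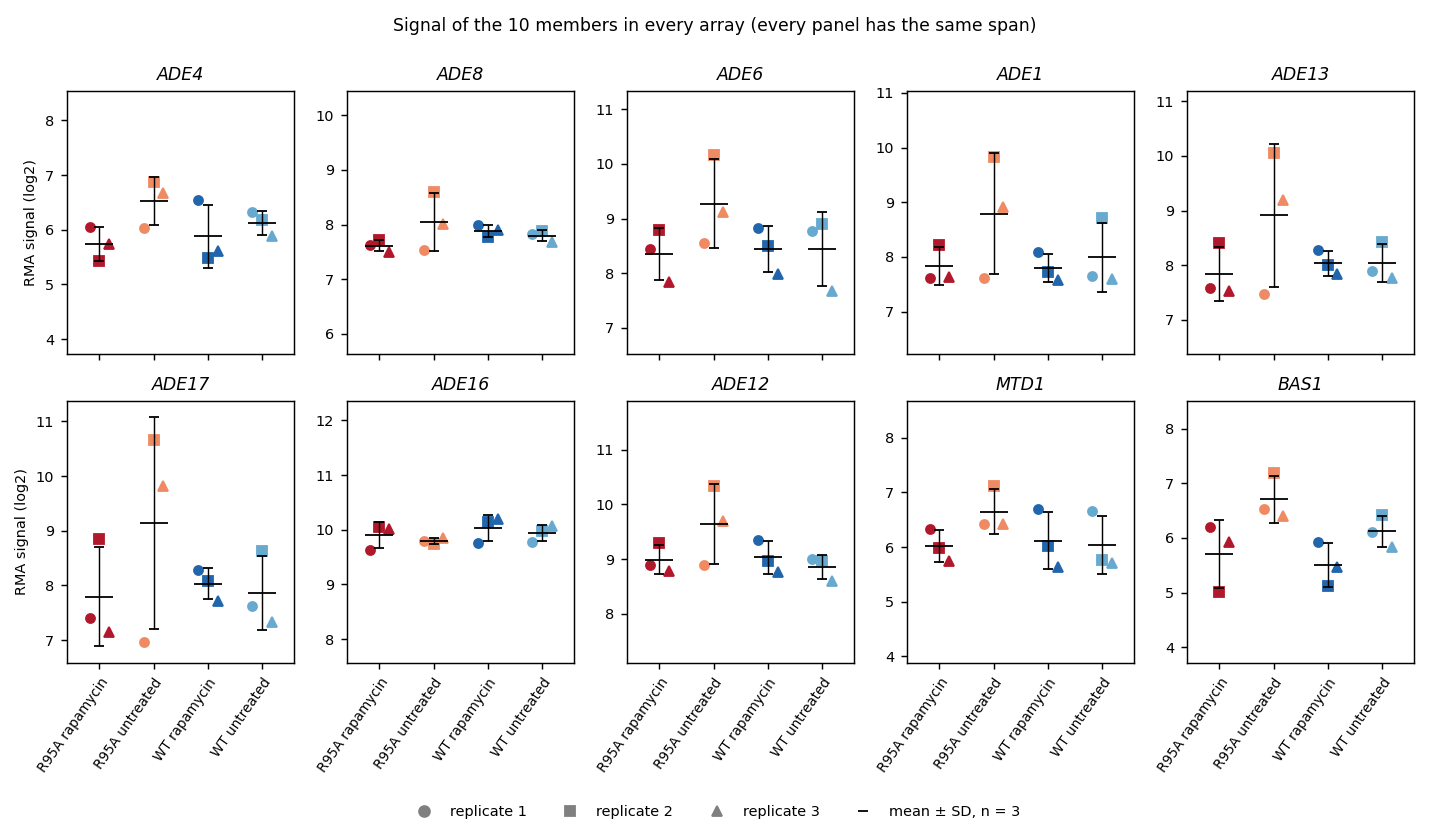
RMA signal (log2, vertical axis) of each member on every array, by group, with symbols for the replicate number and bars for the mean and SD of 3 arrays. In all panels but that of ADE16, untreated H2B R95A replicate 2 is the highest of the 12 points, while ADE16 stays between 9.62 and 10.19.

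The strains were compared first without rapamycin. Of the 10 members, 9 had higher mean signals in H2B R95A than in H2B WT and 1, ADE16, a lower one, with a median log2 difference of 0.70. Over all tested probe sets the median difference was -0.04 and 45.2% were positive. No member passed limma's test at an adjusted p under 0.05 (adjusted p 0.733 to 0.829), where 22 of 5498 probe sets, or 0.4%, did. None reached the study's threshold of an unadjusted p of at most 0.01 with at least a 2-fold change, against 53 probe sets (0.964%). The threshold was applied here to limma's p-values, while the study used cyber-T. With cyber-T 72 probe sets and no member reached it. In limma only ADE12 had an unadjusted p under 0.05, a level at which 1.76% of probe sets were higher in H2B R95A. In no member did the 3 H2B R95A arrays all lie above the 3 H2B WT arrays, which 2.69% of probe sets did. An exact permutation test of 3 arrays against 3 cannot give a two-sided p under 0.1 and was not used.

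The early steps were represented by ADE4 and ADE8. ADE4 (YMR300C) encodes the PRPP amidotransferase that commits PRPP to the pathway. Its signals were 6.06, 5.42 and 5.75 in H2B R95A replicates 1 to 3 with rapamycin and 6.03, 6.88 and 6.67 without it. In H2B WT they were 6.54, 5.48 and 5.62 with rapamycin and 6.32, 6.18 and 5.88 untreated. Among the untreated arrays, H2B R95A replicates 2 and 3 were the highest and replicate 1 was below 2 of the WT arrays, and the strain difference was 0.40 (SE 0.32). ADE8 (YDR408C) encodes the GAR transformylase, the earlier of the folate-dependent steps. It was 8.04 ± 0.53 in untreated H2B R95A and 7.80 ± 0.098 in untreated H2B WT (SD, n = 3 each), and the difference of 0.25 (SE 0.24) was within the spread of the arrays.

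ADE6 (YGR061C), ADE1 (YAR015W) and ADE13 (YLR359W) encode the FGAM synthetase, the SAICAR synthetase and the adenylosuccinate lyase. Ade13 acts both on the way to AICAR and in the last step to AMP. ADE13 signals were 7.58, 8.41 and 7.52 in H2B R95A replicates 1 to 3 with rapamycin and 7.48, 10.06 and 9.19 untreated. The H2B WT arrays gave 8.29, 7.997 and 7.83 with rapamycin and 7.90, 8.43 and 7.77 untreated. Untreated H2B R95A replicate 1 was thus the lowest of the 12 values and replicates 2 and 3 the highest. The fitted strain difference without rapamycin was 0.88 (SE 0.53, limma adjusted p = 0.733).

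ADE1 behaved alike on the untreated arrays. Its signals were 7.62, 8.23 and 7.63 in H2B R95A replicates 1 to 3 with rapamycin and 7.62, 9.84 and 8.92 untreated. The H2B WT arrays gave 8.08, 7.73 and 7.58 with rapamycin and 7.66, 8.72 and 7.60 untreated. The high values were again replicates 2 and 3 of untreated H2B R95A, with WT replicate 2 close below, and the strain difference was 0.80 (SE 0.49). For ADE6 the untreated means were 9.27 ± 0.81 in H2B R95A and 8.45 ± 0.68 in H2B WT (SD, n = 3 each), a difference of 0.82 (SE 0.45).

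ADE16 (YLR028C) and ADE17 (YMR120C) encode isozymes of the same bifunctional enzyme, which formylates AICAR with folate and closes the ring to give IMP. ADE17 had the largest fitted difference of the members. Its signals were 7.41, 8.84 and 7.14 in H2B R95A replicates 1 to 3 with rapamycin and 6.96, 10.66 and 9.81 untreated. In H2B WT they were 8.28, 8.07 and 7.72 with rapamycin and 7.62, 8.63 and 7.33 untreated. Untreated H2B R95A thus held both the lowest and the highest ADE17 signal of the 12 arrays. The strain difference was 1.28 (SE 0.80, 95% interval -0.46 to 3.03), an interval that holds both 0 and differences of several fold.

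ADE16 did not share this pattern. Its signals were 9.62, 10.05 and 10.02 in H2B R95A with rapamycin and 9.79, 9.74 and 9.85 untreated. In H2B WT they were 9.75, 10.14 and 10.19 with rapamycin and 9.77, 9.98 and 10.08 untreated. The groups overlapped in every comparison, and the untreated strain difference was -0.15 (SE 0.19, 95% interval -0.57 to 0.27). The difference between the isozymes in their response was seen in these values and not tested.

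ADE12 (YNL220W) encodes adenylosuccinate synthase, which takes IMP towards AMP. It averaged 9.64 ± 0.72 in untreated H2B R95A and 8.85 ± 0.22 in untreated H2B WT (SD, n = 3 each). The arrays were 8.89, 10.34 and 9.69 in H2B R95A, against 9.001, 8.96 and 8.60 in H2B WT. Replicate 1 of H2B R95A lay inside the WT range and the other 2 lay above it. The difference of 0.79 (SE 0.33, 95% interval 0.07 to 1.51) had an unadjusted p of 0.0352 and an adjusted p of 0.733 in limma.

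MTD1 (YKR080W) encodes a cytosolic NAD-dependent methylenetetrahydrofolate dehydrogenase, and BAS1 (YKR099W) the Myb-type activator itself. MTD1 averaged 6.65 ± 0.40 in untreated H2B R95A and 6.04 ± 0.53 in untreated H2B WT (SD, n = 3 each), a difference of 0.61 (SE 0.34). BAS1 signals were 6.53, 7.19 and 6.396 in untreated H2B R95A, against 6.11, 6.41 and 5.83 in untreated H2B WT. The lowest H2B R95A array of BAS1 lay just under the highest WT array, and the difference was 0.59 (SE 0.34, adjusted p = 0.733). The mutant array of BAS1 was higher than the WT array of the same number by 0.42, 0.78 and 0.57. The replicate numbers did not pair all of the untreated arrays, with r = 0.568 and 0.832 for replicates 1 and 2 but 0.0578 for replicate 3.

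**Figure D2:**
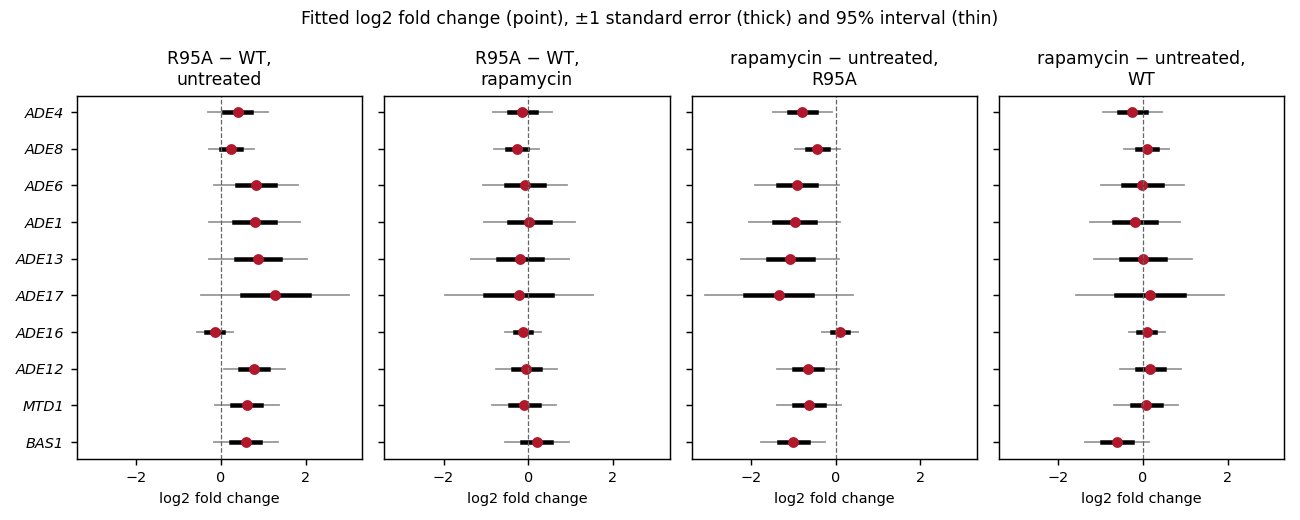
Fitted log2 fold change of each member (horizontal axis) in 4 comparisons, with 1 standard error and the 95% interval. Without rapamycin 9 of 10 points lie to the right of 0, and in H2B R95A 9 of 10 lie to the left of 0 after rapamycin, while most intervals cross 0.

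These values depended on untreated replicates 1 and 2 of H2B R95A. Between arrays of the same number, the median difference of the members (H2B R95A minus H2B WT) was -0.23 for replicate 1, with 2 positive and 8 negative. For replicate 2 it was 1.19 and for replicate 3 it was 0.94, each with 9 positive and 1 negative. Between these arrays, which the replicate numbers did not pair, ADE17 differed by -0.66, 2.03 and 2.48. Without untreated H2B R95A replicate 1 the median strain difference was 0.94. Then 4 members (ADE1, ADE12, ADE13 and ADE17) reached the study's threshold, as did 4.75% of all probe sets. ADE17 then had a difference of 2.37 (limma adjusted p = 0.0725) and ADE13 one of 1.59 (adjusted p = 0.0709), and none of the members was called. Without any replicate 1 array the threshold was reached by ADE12, ADE13, ADE17 and MTD1, against 4.29% of probe sets. Untreated H2B R95A replicate 2 weighed in the other direction. With all arrays the median strain difference was 0.70. Without replicate 2 it was 0.32, the lowest of the 12 fits that left out 1 array. Without untreated H2B WT replicate 3 it was 0.44.

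On untreated H2B R95A replicate 1 the glucose-repressed genes averaged 10.79, against 6.68 and 6.62 on the other untreated H2B R95A arrays. Untreated H2B WT had 10.64, 7.26 and 8.05. The poly-A spike-in mean of 5.93 on the same array was also the highest of the 12, which ranged from 4.35. Their part in the purine gene values was not tested.

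**Figure D3:**
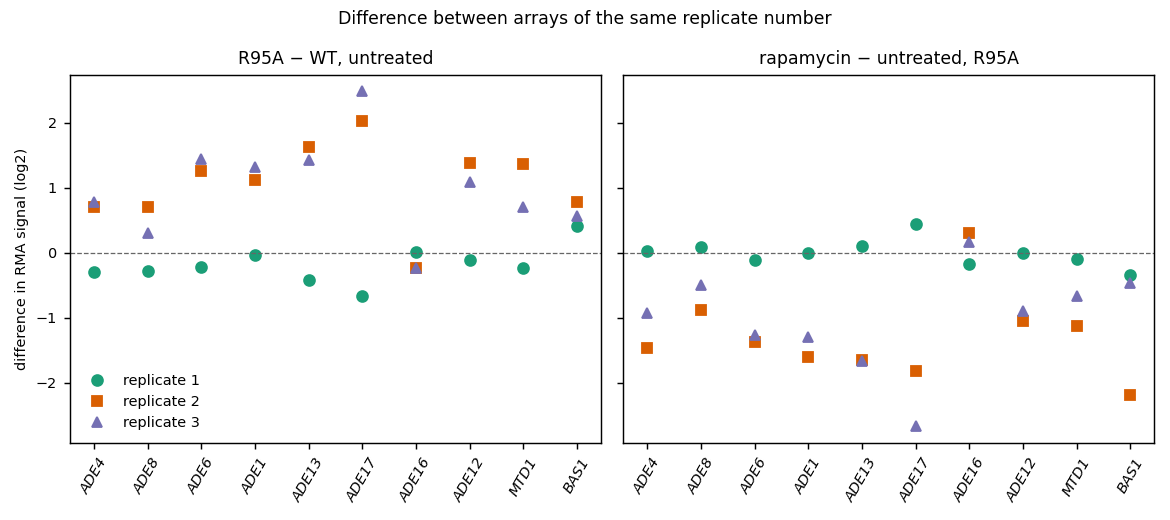
Difference in RMA signal (log2, vertical axis) between arrays of the same replicate number for each member, H2B R95A minus H2B WT without rapamycin on the left and rapamycin minus untreated in H2B R95A on the right. On the left the replicate 1 points of 8 members lie below 0, while replicates 2 and 3 lie above 0 for all members but ADE16. The replicate numbers did not pair the arrays of either comparison.

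With rapamycin the strains did not show the same picture. The median difference of the members between H2B R95A and H2B WT was -0.11, with 2 positive and 8 negative, against 0.02 over all tested probe sets, of which 53.9% were positive. The fitted differences ran from -0.27 for ADE8 to 0.20 for BAS1. None was called (adjusted p = 1 for every member, against 0.346% of probe sets called) and none reached the study's threshold (0.691%). ADE8 was the member whose arrays did not overlap, with 7.502 to 7.71 in H2B R95A and 7.77 to 7.98 in H2B WT, and 2.75% of probe sets were lower in this way. The replicate numbers paired these arrays. In replicates 1 to 3 ADE8 differed by -0.36, -0.06 and -0.40 and ADE16 by -0.13, -0.09 and -0.17. The share of all probe sets negative in all 3 pairs was not counted, so these signs single out neither gene. The sign of this median was not stable, being 0.06 without the replicate 1 arrays, 0.04 with array quality weights, 0.05 without H2B R95A rapamycin replicate 3 and 0.12 without H2B WT rapamycin replicate 1.

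In H2B WT, the members' fitted responses to rapamycin were mostly small, and the replicates differed. The median response was 0.04, with 6 positive and 4 negative, equal to the 0.04 over all probe sets, of which 56.3% were positive, and it was -0.08 with array quality weights. Between arrays of the same number the median was 0.19, -0.42 and 0.09 for replicates 1, 2 and 3, with 8, 3 and 6 members positive. BAS1 had the response farthest from 0, with signals of 5.92, 5.12 and 5.47 after rapamycin, against 6.11, 6.41 and 5.83 in untreated cells. The differences between arrays of the same number, which paired in this strain, were -0.20, -1.29 and -0.36. Its response of -0.61 (SE 0.34) had an unadjusted p of 0.102 in limma. The other 9 members ranged from -0.25 for ADE4 to 0.18 for ADE12. The limma test called 0% of probe sets here (46 higher and 189 lower at an unadjusted p under 0.05), the study's threshold took 0.509%, and neither held a member. Cyber-T called 7 probe sets and no member. With its p-values 102 probe sets and no member reached the study's threshold. In 7.69% of probe sets, none of them a member, the rapamycin and untreated arrays did not overlap. The interval for ADE17 was -1.58 to 1.92, which holds responses of more than 2-fold in either direction.

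In H2B R95A the signals after rapamycin were lower for 9 of 10 members, with a median of -0.85, against 0.10 over all tested probe sets, of which 59.8% were positive. This comparison uses the same 3 untreated H2B R95A arrays as the strain comparison above, so their high replicates enter both. With all arrays no member was called (adjusted p 0.181 to 0.805), and limma called 0% of all probe sets, although 393 were higher and 560 lower at an unadjusted p under 0.05. Cyber-T, the test named in the study's methods, called 255 probe sets here and no member. At the study's threshold 5.15% of probe sets passed with limma's p-values and 433 probe sets with those of cyber-T, and no member did with either. The fitted responses of the enzymes were -1.35 (SE 0.80) for ADE17, -1.07 (SE 0.53) for ADE13, -0.97 (SE 0.49) for ADE1 and -0.92 (SE 0.45) for ADE6. ADE16 stood at 0.10 (SE 0.19).

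The members with an unadjusted p under 0.05 in this comparison were ADE4 and BAS1, and 10.2% of all probe sets were lower at that level. ADE4, for the first step, had a response of -0.79 (SE 0.32, 95% interval -1.49 to -0.08). BAS1 signals were 6.19, 5.01 and 5.92 in H2B R95A with rapamycin, against 6.53, 7.19 and 6.396 without it. All of the rapamycin arrays of BAS1 were below all of the untreated ones, and the fitted response was -0.997 (SE 0.34). Its unadjusted p was 0.0142 and its adjusted p was 0.181 in limma. MTD1 also did not overlap, with 5.75 to 6.33 after rapamycin and 6.42 to 7.12 without it, and 9.37% of probe sets were lower in this way.

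Here too the values depended on untreated replicates 1 and 2 of H2B R95A. Between arrays of the same number the median response of the members in H2B R95A was -0.00, -1.42 and -0.91 for replicates 1, 2 and 3. The replicate numbers did not pair these arrays (r = 0.422, 0.481 and 0.0134), so these are differences between arrays and not paired responses. Between these arrays ADE17 gave 0.44, -1.81 and -2.67, ADE13 gave 0.11, -1.65 and -1.67, and BAS1 gave -0.34, -2.18 and -0.47. When untreated H2B R95A replicate 1 was left out, 4 members were called as lower after rapamycin, ADE13 by -1.79 (limma adjusted p = 0.0216), ADE17 by -2.44 (adjusted p = 0.0258), ADE1 by -1.55 (adjusted p = 0.0333) and ADE12 by -1.03 (adjusted p = 0.0385). In that fit 13.2% of all probe sets were called. The study's threshold then took these 4 and ADE4, against 11.9% of probe sets. Without all replicate 1 arrays ADE4 (adjusted p = 0.0394) and ADE13 (adjusted p = 0.0457) were called, with 13% of probe sets. With limma's array quality weights 6 members were called (ADE1, ADE4, ADE12, ADE13, ADE17 and BAS1), with 18.7% of probe sets. The median response was -0.85 with all arrays and -1.06 without untreated replicate 1. Without untreated replicate 2 it was -0.46, and no member was called.

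The difference between the responses of the strains was tested directly. The median over the members was -0.74, with 9 negative and 1 positive, against 0.05 over all probe sets. ADE17 had the farthest value, -1.51 (SE 1.13, 95% interval -3.99 to 0.96). The adjusted p was 0.9997 for every member, 0% of probe sets were called, with 3 positive and 5 negative at an unadjusted p under 0.05, and 0.0182% reached the study's threshold. Without untreated H2B R95A replicate 1, ADE12, ADE13 and ADE17 reached that threshold, with 0.946% of probe sets, and none was called. A response that differs between H2B R95A and H2B WT was therefore not shown for any member, and the intervals allow one of more than 2-fold for most of the enzymes.

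The ADE genes other than ADE16 varied together over the arrays. For ADE1, ADE4, ADE6, ADE8, ADE12, ADE13 and ADE17, the 21 pairwise Pearson correlations over 12 arrays ran from 0.576 to 0.986, with a median of 0.865. ADE13 and ADE17 had the highest. ADE16, MTD1 and BAS1 were left out of this set, and no other gene set was correlated in this way for comparison. With the mean of the other 9 members, r was 0.954 for ADE13, 0.945 for ADE12, 0.938 for ADE1, 0.64 for MTD1 and 0.559 for BAS1. MTD1 and BAS1 followed the others less closely once group means were removed, with an r of 0.475 for MTD1 and 0.324 for BAS1, against 0.966 for ADE12 and 0.921 for ADE13. ADE16 had an r of -0.512 with the others, and each of its 9 pairs was negative, from -0.801 to -0.164. These 12 points share 4 groups and 1 normalization and hold the high replicates of untreated H2B R95A, so they describe these arrays only.

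The tested genes outside the members whose signals were most like the members' mean profile were ILM1 (r = 0.957), WRS1 (0.95), HIS1 (0.949), HIS5 (0.935) and ODC2 (0.934), over 12 arrays. WRS1 encodes the cytosolic tryptophanyl-tRNA synthetase, and HIS1 and HIS5 encode enzymes of histidine synthesis. In all, 34 probe sets had an r over 0.9. When group means were removed, GCV2 (r = 0.965), a subunit of the glycine cleavage system that supplies one-carbon units, HIS1 (0.961) and PUS9 (0.958) came first. A set of 20 ribosome assembly genes had an r of 0.762 with the members' profile, and the glucose-repressed genes one of -0.474.

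The ribosome assembly genes averaged 5.85, 5.06 and 5.42 in H2B R95A replicates 1 to 3 with rapamycin and 7.01, 8.15 and 7.69 untreated. In H2B WT they averaged 5.95, 5.03 and 5.17 with rapamycin and 7.09, 7.34 and 5.61 untreated. All rapamycin arrays were thus below all untreated arrays in this list but H2B WT replicate 3. Most genes of the list are among those the study reports as down-regulated by rapamycin on these same arrays, so their fall is not an independent result. The members averaged 7.58, 7.77 and 7.39 in H2B R95A with rapamycin and 7.58, 9.06 and 8.41 untreated. In H2B WT the members averaged 7.97, 7.58 and 7.47 with rapamycin and 7.76, 7.98 and 7.41 untreated. Their means on the rapamycin arrays lay within the range of untreated H2B WT, apart from H2B R95A replicate 3 just under it. How far the members moved with the ribosome assembly genes was described and not tested.

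Other genes around the pathway were counted as whole lists, and limma called no gene of them in any comparison. Of the remaining de novo steps, ADE2 and ADE3 had probe sets that could be tested. ADE2, for the AIR carboxylase, differed by 0.50 (SE 0.37) between untreated H2B R95A and H2B WT and by -0.25 (SE 0.37) after rapamycin in H2B R95A. ADE3, for the trifunctional cytosolic C1-tetrahydrofolate synthase, differed by 0.28 (SE 0.33) and -0.03 (SE 0.33) in the same comparisons.

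PRPP itself is made by the PRS enzymes. All 5 PRS genes had positive differences between the untreated strains (H2B R95A minus H2B WT, median 0.47). After rapamycin all 5 had negative responses in both strains, with a median of -0.92 in H2B R95A and -0.43 in H2B WT. With limma's p-values PRS4 reached the study's threshold in both strains. Its response was -1.24 (SE 0.35) in H2B R95A, where 5.15% of all probe sets passed it, and -1.21 (SE 0.35) in H2B WT, where 0.509% did. In H2B R95A, 4 of the 5 PRS genes were lower at an unadjusted p under 0.05, as were 10.2% of all probe sets. The PRPP genes thus had negative values in H2B WT, where the members' median was 0.04, and this contrast between the lists was not tested.

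Of 14 genes of one-carbon and folate metabolism, 11 were positive between the untreated strains (H2B R95A minus H2B WT, median 0.31), and 10 were negative after rapamycin in H2B R95A (median -0.34). MIS1, the mitochondrial C1-tetrahydrofolate synthase, had 1.19 (SE 0.57) and -1.32 (SE 0.57). MET13, a methylenetetrahydrofolate reductase, went the opposite way, with -0.62 (SE 0.30) and 0.80 (SE 0.30). The partner of Bas1, PHO2, also ran against BAS1, with -0.44 (SE 0.27) between the untreated strains and 0.56 (SE 0.27, adjusted p = 0.316) after rapamycin in H2B R95A. GCN4, which activates amino acid genes and binds a motif close to that of Bas1, had -0.15 (SE 0.34) and -0.10 (SE 0.34).

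The 7 histidine genes were all positive in untreated H2B R95A against H2B WT, with a median of 0.75. HIS3 is one of them, and its own value is that median. The strains carry a his3 deletion allele and a plasmid with a His marker, so its signal cannot be read as that of the chromosomal gene. HIS1, for the PRPP-using first enzyme, differed by 1.14 (SE 0.41) between the untreated strains. After rapamycin in H2B R95A, HIS1 had a response of -1.48 (SE 0.41, adjusted p = 0.124) and HIS7 one of -1.46 (SE 0.45, adjusted p = 0.15), both past the study's threshold, which 5.15% of all probe sets passed in this comparison. In H2B WT the responses were -0.32 (SE 0.41) for HIS1 and -0.58 (SE 0.45) for HIS7.

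Of the 14 genes of purine salvage and of the GTP branch, 12 were positive between the untreated strains (median 0.52) and 12 negative after rapamycin in H2B R95A (median -0.59). AAH1, the adenine deaminase that feeds adenine back towards IMP, had signals of 4.80, 3.61 and 3.76 in H2B R95A with rapamycin and 5.62, 9.05 and 6.87 without it. In H2B WT it had 4.95, 3.37 and 3.85 with rapamycin and 5.68, 7.39 and 3.82 without it. The H2B R95A groups did not overlap, and 9.37% of all probe sets were lower in this way. The fitted response was -3.12 (SE 0.95, limma adjusted p = 0.146), while in H2B WT it was -1.57 (SE 0.95). APT1, the adenine phosphoribosyltransferase, had -1.74 (SE 0.44, adjusted p = 0.102) in H2B R95A and -0.80 (SE 0.44) in H2B WT. IMD2, an IMP dehydrogenase, differed by 1.43 (SE 0.66) between the untreated strains and by 1.32 (SE 0.66) between the strains with rapamycin. Its response in H2B R95A was -0.25 (SE 0.66).

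Pyrimidine genes gave a wider mix. Of 8, 6 were positive between the untreated strains (median 0.35), and URA7, a CTP synthase, had a rapamycin response of -2.93 (SE 0.70, adjusted p = 0.0941) in H2B R95A and of -1.35 (SE 0.70) in H2B WT. The 4 ribonucleotide reductase genes had medians of 0.09 between the untreated strains and -0.10 after rapamycin in H2B R95A. The 20 ribosome assembly genes had medians of 0.84 and -2.08 in these comparisons and -1.49 after rapamycin in H2B WT, and the 12 glucose-repressed genes had -0.70, 1.26 and 0.13. Of the lists plotted below the members, all but the regulators and the glucose-repressed genes had medians above that of all probe sets between the untreated strains and below it after rapamycin in H2B R95A.

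**Figure D4:**
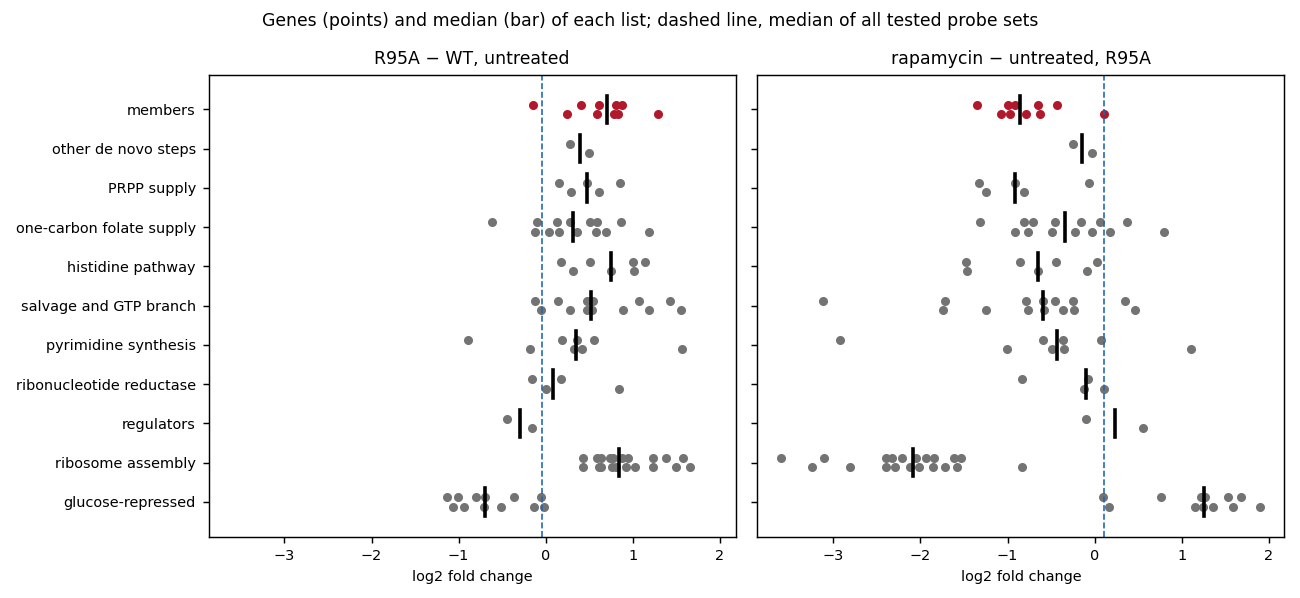
Log2 fold change (horizontal axis) of the genes of each list as points, with the list median as a bar and the median of all tested probe sets as a dashed line, for untreated H2B R95A minus H2B WT and for rapamycin minus untreated in H2B R95A. The members have medians of 0.70 and -0.85, and the ribosome assembly genes 0.84 and -2.08.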

How the data were processed

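Total RNA was measured on 12 arrays, 3 in each of 4 groups, and no scan files were read here. Per the study's methods, the authors summarised the scans by RMA in FlexArray 1.6.3. The deposited log2 signals are therefore background corrected and quantile normalized. All 12 columns were mapped to samples. Of 10928 probe sets, 5498 with 1 annotated S. cerevisiae gene were tested. Not tested were 166 controls, 3517 without a gene in the annotation and 1747 with another annotation. Annotation came from the platform table, and the genome build was not given in the sources used here. ADE5,7 had no tested probe set.

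With R 4.3.3 and limma 3.58.1, group means were fitted over all 12 arrays with eBayes and its trend option, and Benjamini-Hochberg adjustment ran over the 5498 probe sets in each of 5 comparisons. The study's p and fold threshold was applied to limma's p-values, except in the cyber-T alternative. The fit was tested on simulated data with independent noise on each array. That simulation holds no replicate effect, so it does not cover the replicate differences seen here. Alternatives were cyber-T (the study's tool), no trend, array weights, centring on the median or the spike-ins, quantile normalization of the tested probe sets, dim probe sets (mean signal up to 1.37) left out, only the compared arrays, the replicate block, no replicate 1 arrays, averaged probe sets, and each array left out. Lists are described by counts and medians, with no test of a list.

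The members and lists were chosen with earlier results of these data known. All members are named, and per-array values are given for the 4 with the largest changes. Those of ADE4, ADE12, ADE16 and AAH1 were added after the values were seen. From related lists at most 4 genes a comparison are named, by size of change, and ADE2, ADE3, PHO2 and GCN4 as whole lists. Replicate numbers were checked for pairing by the correlation of deviations from group means. Those of the strains with rapamycin (r = 0.885, 0.784 and 0.74) and of H2B WT with and without rapamycin (r = 0.836, 0.406 and 0.775) paired the arrays. In these, each replicate number correlated best with the same number, which replicate 3 did not do in the remaining comparisons. The number of arrays limits the precision of every value.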

Additional observations from a re-analysis of the deposited data

How the results depend on the processing

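No member was called between the strains, after rapamycin in H2B WT or for the difference of the responses under any alternative run. After rapamycin in H2B R95A, array weights gave 6 called members, leaving out all replicate 1 arrays gave 2, and leaving out 1 array at a time gave 0 to 4, the 4 without untreated H2B R95A replicate 1. At the study's threshold that comparison held 5 members with array weights and 3 with no replicate 1 arrays. Of the 5498 probe sets, 672 and 674 passed in these fits, against 283 with all arrays. With 1 array left out it held 0 to 5 members, the 5 without untreated H2B R95A replicate 1 (656 probe sets). BAS1 alone passed without H2B R95A rapamycin replicate 1 (291 probe sets). Between the untreated strains the threshold held 2 members with array weights (ADE12 and ADE13) and 4 with no replicate 1 arrays. In these fits 159 and 236 probe sets passed, against 53 with all arrays. With 1 array left out it held 0 to 4 members, the 4 where 261 probe sets passed. For the difference of the responses the threshold held 0 to 3 members with 1 array left out, the 3 where 52 probe sets passed. Causes were not tested.

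Leaving out 1 array at a time gave median differences of 0.32 to 0.94 between the untreated strains, -0.26 to 0.12 with rapamycin, -0.16 to 0.15 for rapamycin in H2B WT, -1.06 to -0.46 in H2B R95A and -1.01 to -0.41 for the difference of the responses. The other settings gave 0.52 to 1.13, -0.48 to 0.06, -0.08 to 0.05, -1.26 to -0.81 and -0.98 to -0.74. Of 1130 fitted member values, 1065 kept their sign and their side of an adjusted p of 0.05, 12 gained a call at that level and 53 changed sign, none of them over 0.25 in size with all arrays. Centring on the spike-ins moved the median of all probe sets to -0.35 between the strains with rapamycin and to -0.12 after rapamycin in H2B R95A, where the members' median became -1.08 and all 10 were negative. With the replicate block in limma no member was called, 6 had an unadjusted p under 0.05 after rapamycin in H2B R95A, and BAS1 had an adjusted p of 0.089. The share of all probe sets at that unadjusted level was not counted with the block, so the 6 do not single out the members. The study's threshold took 437 probe sets there with the block, against 283 without it. The replicate numbers did not pair the untreated strains (r = 0.568, 0.832 and 0.0578) or the H2B R95A arrays (r = 0.422, 0.481 and 0.0134). The cyber-T alternative and the fit on the compared arrays were not run for the difference of the responses.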
